A study of Mus musculus with 3 samples.

Results

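The 7 genes described here mark regulatory T (Treg) cells or their tissue-repair functions: Foxp3, Ikzf2, Itgb8, Lrrc32, Il1rl1, Areg and Izumo1r. They were chosen by name from the 33696 genes counted, and each matched 1 gene. Their levels were followed through 5 classes of cells among 71909 cells sorted as live CD45+ leukocytes from KP1 tumors, a transplanted mouse small-cell lung cancer model. The classes held 1527 Foxp3-positive cells, 7224 other CD4 cells, 13094 CD8 cells, 10474 natural killer (NK) cell-like cells and 140 group 2 innate lymphoid cell (ILC2)-like cells. Wild-type B6129SF1/J mice, named F1 in the labels, received 500000 KP1 cells under the skin and 3 µg of cytokine per dose on alternate days from day 7 until the tumors were taken on day 19. The mono-IL-10 group, labelled Supermono10 and taken to be the mono-IL-10 of the protocol, received an engineered IL-10, the IL-10/2-Trikine group received a fusion that also engages the IL-2 receptor beta chain, and the combination group received the IL-10/2-Trikine with antibody against PD-1, 200 µg at each of days 7, 11, 15 and 19. The sample labels name the antibody for the combination alone and the study's methods name the groups likewise, and this was followed, although the wording of the protocol could also be read as giving it to every group. A group was 1 library of an unstated number of mice, with no untreated library, so no test between treatments was possible.

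Treg cells restrain other lymphocytes. Foxp3 encodes the transcription factor that defines them, and Ikzf2 encodes Helios, a zinc finger factor common in them. Lrrc32 encodes GARP, which holds latent TGF-beta on the cell surface, and Itgb8 encodes the integrin chain that, paired with the alpha V chain, releases the active cytokine. Il1rl1 encodes ST2, the receptor for the alarmin IL-33, and Areg encodes amphiregulin, an epidermal growth factor (EGF) receptor ligand with which Treg cells and ILC2 act in tissue repair. Izumo1r encodes folate receptor 4, a surface protein of Treg cells that also appears on other CD4 cells.

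The promoters of Areg and Il1rl1, the pair of genes that were highest in ILC2-like cells, are shown with the short motifs found in them. The RefSeq windows at hand covered 5 of the 7 genes, and none was at hand for Ikzf2 and Lrrc32. Each window shown is the 250 bases before a transcript start on build GRCm38.p6, on the + strand of the chromosome and written 5′ to 3′, with motifs in capitals. The motifs searched on both strands were the cyclic AMP response element TGACGTCA, a STAT element written as TTCNNNGAA, the element of GATA factors written as AGATAA, and for the core promoter the box with letters TATAAA.
Areg, chr5:91139349-91139598: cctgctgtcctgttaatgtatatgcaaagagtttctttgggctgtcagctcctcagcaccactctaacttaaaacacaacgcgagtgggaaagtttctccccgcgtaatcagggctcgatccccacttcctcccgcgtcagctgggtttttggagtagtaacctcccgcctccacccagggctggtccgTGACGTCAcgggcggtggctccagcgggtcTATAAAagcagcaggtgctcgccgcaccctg
Il1rl1, chr1:40429320-40429569: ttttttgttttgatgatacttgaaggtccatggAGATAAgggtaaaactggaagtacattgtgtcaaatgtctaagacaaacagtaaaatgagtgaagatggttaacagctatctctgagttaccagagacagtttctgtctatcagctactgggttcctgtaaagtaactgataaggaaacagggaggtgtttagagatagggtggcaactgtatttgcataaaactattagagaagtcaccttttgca
Il1rl1, chr1:40439379-40439628: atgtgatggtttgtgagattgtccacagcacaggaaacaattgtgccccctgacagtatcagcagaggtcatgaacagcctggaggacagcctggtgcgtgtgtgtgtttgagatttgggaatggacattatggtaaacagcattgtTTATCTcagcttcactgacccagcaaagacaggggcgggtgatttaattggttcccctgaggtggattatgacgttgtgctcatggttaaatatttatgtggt

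The Areg window held TGACGTCA beginning at base -61 and TATAAA at base -31 from the start. Of 32851 mouse promoter windows of this length, 1.55% held TGACGTCA and 12.4% held TATAAA. The 2 Il1rl1 windows each held 1 GATA motif, at base -217 in the first and, on the opposite strand, at base -103 in the second, against 9.99% of all windows. The STAT element was in none of the windows shown. Of the Foxp3 windows, which are not shown, the first held TATAAA at base -32. The second held a GATA motif at base -47 and the STAT element at base -139, against 7.02% of all windows for the latter. These matches describe the letters only.

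Cell classes are described here by markers, none of which is among the 7 genes. Clusters were named from these same lists, so the presence of a class's own markers is a description and not a check. All 12 T cell markers reached 20 CPM in every library in Foxp3-positive, other CD4 and CD8 cells. All 9 NK cell markers did so in NK cell-like cells, and 7 of 9 ILC2 markers did so in ILC2-like cells. CPM stands for the unique molecular identifiers (UMIs) of a gene, scaled per 1e6 UMIs that a class held in its library. Its 95% interval is an exact Poisson interval that covers counting error only. A Foxp3-positive cell was a T cell-like cell with at least 1 Foxp3 UMI and no Cd8a or Cd8b1 UMI. Of the T cell-like cells with a Foxp3 UMI, 46.6%, 42.0% and 41.8% in the mono-IL-10, IL-10/2-Trikine and combination libraries carried a Cd8 UMI and were left out. The same exclusion removed 18.6%, 23.1% and 19.4% of the T cell-like cells with a Cd4 UMI and no Foxp3 UMI, so it bears on the Foxp3-positive shares below. NK cell markers in Foxp3-positive cells summed to 375, 2604 and 1831 CPM in that order, and 3 of 9 of them reached 20 CPM in all libraries. T cell markers summed to 2804, 4137 and 3441 CPM in NK cell-like cells and to 2481, 1760 and 2374 CPM in ILC2-like cells, and 11 of 12 of them reached 20 CPM in all libraries in both. In ILC2-like cells the ILC2 markers summed to 9228, 6836 and 5306 CPM and the monocyte/macrophage markers to 945, 605 and 752 CPM. The part of these markers in the results was not tested.

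Most of the NK cell-like class was not shown to be NK cells. It joined 3 clusters, of which cluster 5, with 4739 cells, had Ncr1, an activating NK cell receptor, in 72.1% of cells and Cd3e, a chain of the T cell receptor complex, in 17.5%. Clusters 7 and 11, with 3333 and 2402 cells, had Ncr1 in 19.0% and 39.2% but Cd3e in 66.5% and 81.2%, and both Klra receptor genes and the T cell receptor gene Trgc4 were among their leading genes. Cluster 5 made up 873 of 1314 NK cell-like cells in the mono-IL-10 library, 1520 of 4977 in the IL-10/2-Trikine library and 2346 of 4183 in the combination library.

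**Figure D1:**
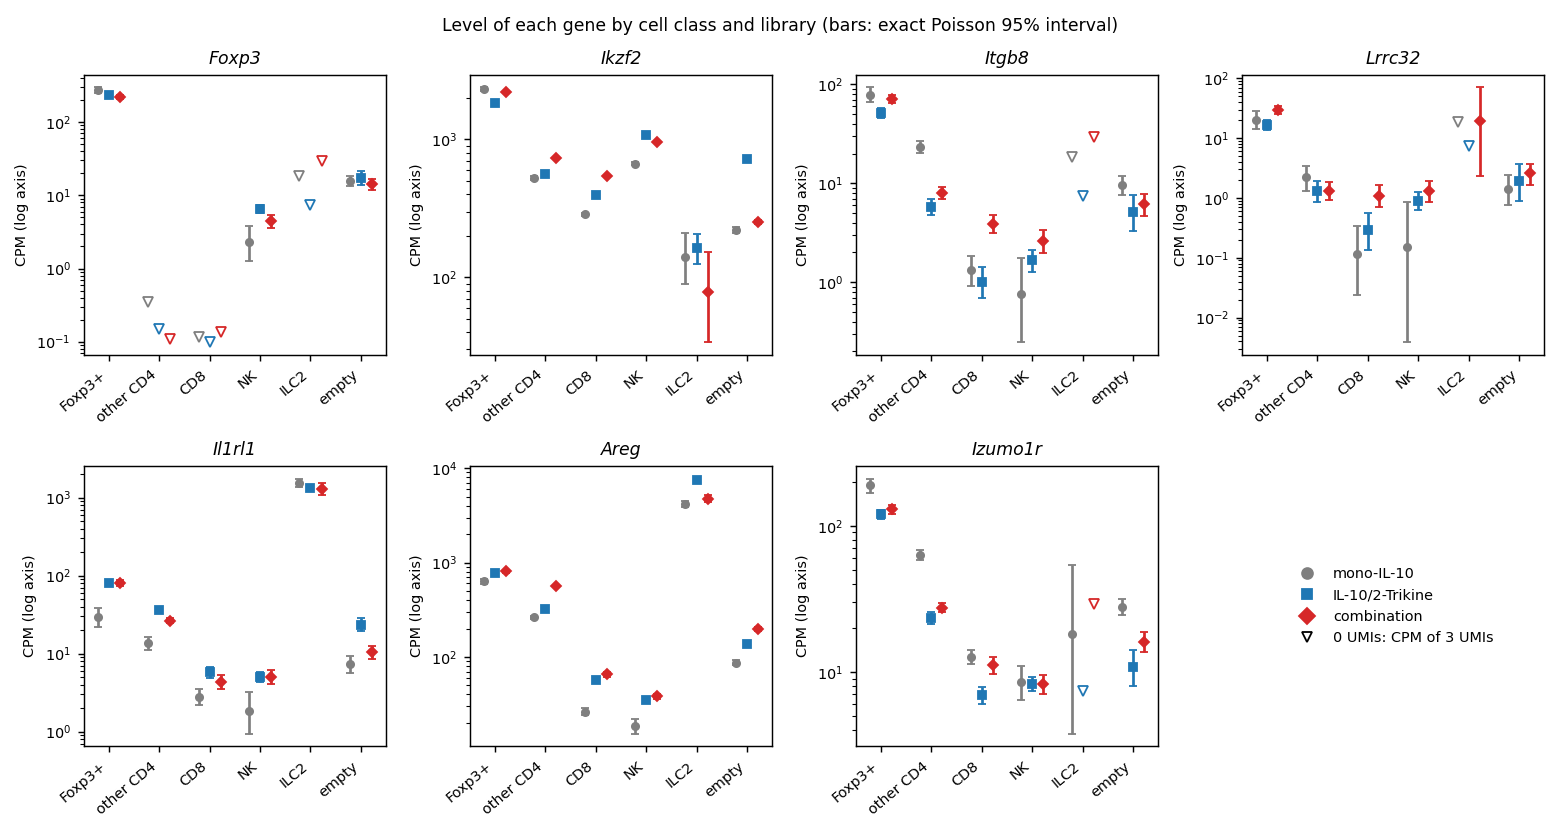
CPM on log axes (vertical) of each gene in 5 cell classes and in empty droplets (horizontal), with 1 point per library and exact Poisson 95% intervals, and open triangles at the CPM of 3 UMIs where no UMI was found. Ikzf2, Itgb8 and Izumo1r were highest in Foxp3-positive cells of each library, while Il1rl1 and Areg were highest in ILC2-like cells.

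Foxp3 served as the gate, so its level in Foxp3-positive cells and its absence from other CD4 and CD8 cells are a description. Foxp3-positive cells held 273, 235 and 220 CPM of Foxp3 in the mono-IL-10, IL-10/2-Trikine and combination libraries. They made up 11.7%, 23.1% and 16.1% of Foxp3-positive and other CD4 cells together. After each cell was thinned to 1000 UMIs, these shares were 8.95%, 18.4% and 11.2%. No Cd4 UMI was asked of Foxp3-positive cells, and 79.4%, 79.0% and 81.5% of them had 1, whereas every other CD4 cell had 1. Over both classes together the Foxp3 level was 45.4, 52.3 and 44.3 CPM. The mono-IL-10 and combination libraries thus had a like level although their Foxp3-positive shares differed, and no order between that pair is read. The Foxp3-positive share was highest in the IL-10/2-Trikine library. Its level was 1.15-fold that of the mono-IL-10 library (1.04 to 1.28), with Poisson intervals that overlapped, and this ratio was 1.02 when cells with a Cd8 UMI were kept and 1.96 when cells were thinned. No Foxp3 UMI was found in ILC2-like cells, where 3 UMIs would be 18.3, 7.40 and 29.3 CPM in the 3 libraries. NK cell-like cells held 2.27, 6.55 and 4.44 CPM of Foxp3, below the 15.7, 17.4 and 14.1 CPM of empty droplets, and are read as background.

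Ikzf2 was found in 96.7%, 96.9% and 99.1% of Foxp3-positive cells. It held 2317, 1849 and 2199 CPM there in the order mono-IL-10, IL-10/2-Trikine and combination. NK cell-like cells taken whole followed with 668, 1082 and 958 CPM. Other CD4 cells held 523, 558 and 735 CPM, and CD8 cells held 286, 399 and 542 CPM. The 5 classes thus kept the same order in every library, with ILC2-like cells lowest at 140, 163 and 78.2 CPM. The place of NK cell-like cells rested on the 2 clusters rich in Cd3e. Cluster 7 held 1625, 1635 and 1939 CPM of Ikzf2 and cluster 11 held 929, 1113 and 1156 CPM, whereas cluster 5 held 235, 395 and 337 CPM, below other CD4 cells in every library. Empty droplets of the IL-10/2-Trikine library held 725 CPM of Ikzf2, above the other CD4 and CD8 cells of that library, against 221 and 252 CPM in the other libraries.

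Itgb8 and Lrrc32, the pair of these genes whose products act on TGF-beta, were higher in Foxp3-positive than in other CD4, CD8 and NK cell-like cells. Itgb8 held 79.1, 51.5 and 71.3 CPM in Foxp3-positive cells against 23.3, 5.79 and 8.03 CPM in other CD4 cells. Only the mono-IL-10 value of other CD4 cells had an interval above that of empty droplets, which held 9.55, 5.16 and 6.11 CPM. CD8 and NK cell-like cells held at most 3.91 CPM of Itgb8. Lrrc32 held 20.4, 16.6 and 29.6 CPM in Foxp3-positive cells and 2.20, 1.29 and 1.33 CPM in other CD4 cells. Empty droplets held 1.43, 1.93 and 2.56 CPM of Lrrc32, so outside Foxp3-positive cells this gene was not detectable above them at this depth, apart from 2 UMIs in ILC2-like cells of the combination library.

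Among the 5 classes, Il1rl1 was highest in ILC2-like cells and next highest in Foxp3-positive cells. Outside them, mast cell/basophil-like cells held 202, 369 and 354 CPM, above Foxp3-positive cells. ILC2-like cells held 1554, 1340 and 1309 CPM, with intervals that overlapped between all 3 libraries. Foxp3-positive cells held 29.7, 80.7 and 81.3 CPM, and 13.1%, 26.3% and 29.0% of them had an Il1rl1 UMI. In neutrophil-like cells the share was 1.86%, 1.85% and 10.6%, at median depths of 2031, 1322 and 1410 UMIs against 5872.5, 5959 and 7262.5 UMIs. Other CD4 cells held 13.5, 36.5 and 26.6 CPM. CD8 and NK cell-like cells held at most 5.73 CPM, below the 7.35, 23.6 and 10.4 CPM of empty droplets.

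Areg, like Il1rl1, was highest in ILC2-like cells, then in Foxp3-positive and then in other CD4 cells of each library. ILC2-like cells held 4157, 7482 and 4758 CPM of Areg, Foxp3-positive cells 635, 772 and 805 CPM, and other CD4 cells 262, 323 and 565 CPM. CD8 cells at 26.4 to 65.2 CPM and NK cell-like cells at 18.5 to 38.1 CPM lay below the empty droplets of their own library, which held 87.2, 138 and 198 CPM. Areg UMIs sat in few cells. The 22, 65 and 67 Foxp3-positive cells with the most Areg held 72.0%, 59.3% and 58.0% of them, and the 162, 215 and 346 such other CD4 cells held 96.3%, 80.0% and 73.9%. Although ILC2-like cells had the highest level, they were so few that they held 5.50%, 8.77% and 1.23% of all Areg UMIs of their library. Other CD4 cells held 18.3%, 18.9% and 38.7%.

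Izumo1r held 188, 120 and 130 CPM in Foxp3-positive cells, where 55.1%, 53.0% and 56.3% of cells had a UMI. Other CD4 cells held 63.1, 23.3 and 27.5 CPM, above empty droplets at 27.8, 10.7 and 16.0 CPM. CD8 and NK cell-like cells held at most 12.7 CPM. In ILC2-like cells 3 UMIs were found in the mono-IL-10 library and none in the others.

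The difference between Foxp3-positive and other CD4 cells was tested within libraries, with UMIs summed by class in each library and the library as a block (edgeR quasi-likelihood test, 3 libraries, two-sided, Benjamini-Hochberg adjustment over 13657 genes). All 6 genes that could be tested were higher in Foxp3-positive cells, against 5.61% of all genes tested, and none was lower, against 3.49%. Lrrc32 differed by 3.90 ± 0.38 (log2, SE, adjusted p = 0.000182) and Itgb8 by 2.69 ± 0.37 (adjusted p = 0.00142). Izumo1r differed by 2.07 ± 0.16 (adjusted p = 5.98e-05) and Ikzf2 by 1.84 ± 0.15 (adjusted p = 7.78e-05). The repair genes differed least, Il1rl1 by 1.35 ± 0.13 (adjusted p = 0.000184) and Areg by 1.02 ± 0.17 (adjusted p = 0.00474). Each of the 6 was higher in 3 of 3 libraries. Without the library block the adjusted p was 0.204 for Il1rl1 and 0.303 for Areg, while the other 4 kept their call.

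**Figure D2:**
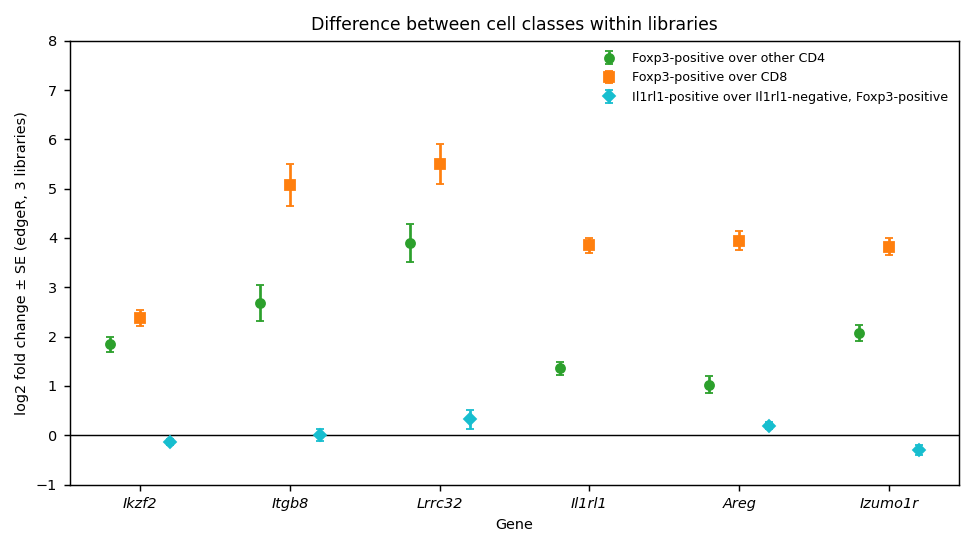
Fitted log2 fold change with its SE (vertical) for each gene (horizontal) in 3 contrasts between cell classes over 3 libraries. Lrrc32 and Itgb8 differed most from other CD4 and CD8 cells, while all values for Il1rl1-positive over Il1rl1-negative cells lay between -0.31 and 0.32.

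Against CD8 cells the same 6 genes were again higher, beside 12.2% of all genes tested, and none was lower, beside 9.61%. The log2 differences were 5.50 ± 0.41 for Lrrc32, 5.07 ± 0.42 for Itgb8, 3.94 ± 0.19 for Areg, 3.85 ± 0.15 for Il1rl1, 3.82 ± 0.18 for Izumo1r and 2.38 ± 0.15 for Ikzf2. The highest of their adjusted p-values was 1.32e-05 (edgeR). CD8 levels lay below those of empty droplets for 5 of the 6 genes in every library, and for Ikzf2 in the IL-10/2-Trikine library.

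Other genes of these pathways moved unevenly. Of 18 Treg surface and effector genes, 12 were higher and 1 lower in Foxp3-positive than other CD4 cells, with a median log2 difference of 0.72 against -0.02 over all genes tested. Gpr83, a surface receptor of Treg cells, differed by 3.38. It had only 12, 6 and 16 UMIs in Foxp3-positive cells of the mono-IL-10, IL-10/2-Trikine and combination libraries. Klrg1, an inhibitory receptor of effector cells, differed by 3.04, Il10 by 1.59 and Ctla4, an inhibitory receptor, by 1.06. Nrp1, a semaphorin receptor, was the 1 that was lower, by -0.62. Of 10 transcription factors tested, Ikzf4 (Eos), Nfil3 and Prdm1 (Blimp-1) were higher, by 1.64, 0.80 and 0.40, and Tbx21 (T-bet) was lower at -0.61. Gata3 and Rora, factors that ILC2 also use, had values of 0.06 and 0.06 and did not pass the test.

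Among 12 genes of TGF-beta activation and response, Itgav, the integrin alpha V chain that pairs with the Itgb8 product, was higher by 1.07 and Itgae by 1.86. Furin, a protease that processes the TGF-beta precursor, was lower at -0.60 and the receptor gene Tgfbr2 at -0.60. None of the 8 tested genes of the IL-33 receptor pathway passed the test in either direction. The coreceptor gene Il1rap had a value of -0.51 (adjusted p = 0.0896, edgeR). Il33 itself was found at no more than 0.959 CPM over all kept cells of any library. In the combination library 144 of its 158 UMIs lay in monocyte/macrophage-like cells, at 3.02 CPM. Although the cells were sorted as CD45+, some clusters were named KP1 tumor cell-like from markers. These held 0, 0 and 2 Il33 UMIs in the mono-IL-10, IL-10/2-Trikine and combination libraries. The level in cells of the tumor outside the sort was not measured. Of 7 tested genes around amphiregulin and the EGF receptor, Adam17, the protease that sheds amphiregulin, was higher by 0.37 and Rhbdf2, a regulator of that protease, was lower at -1.04. Egfr, the receptor gene, held at most 0.605 CPM over all kept cells of this CD45+ sort. Of 5 folate receptor and uptake genes, only the carrier gene Slc19a1 passed the filter on low counts, with a value of 0.10. Among genes with a mean of at least 20 CPM that passed the test, the highest values included those of Klrg1, Itgb8, Iigp1 and Tbc1d30, at 3.04, 2.69, 2.58 and 2.09, and the lowest were those of Serpine2, Tgfbr3, Ccl1, Tnfsf11 and Nrgn, at -2.30, -1.98, -1.91, -1.89 and -1.75.

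Between libraries, a gene was called where its CPM differed at least 1.5-fold with at least 20 UMIs in the pair. In Foxp3-positive cells, Il1rl1 was higher in the IL-10/2-Trikine than the mono-IL-10 library, by 2.72-fold (95% interval 2.03 to 3.71). Among the 6 genes other than Foxp3, which set the gate, it was the 1 called higher, beside 6.1% of all genes. Under every alternative this ratio stayed between 2.57 and 3.44. Other CD4 cells showed a ratio of 2.69 (2.21 to 3.30) and CD8 cells 2.04 (1.54 to 2.72), but ILC2-like cells 0.86 (0.742 to 1.004). Empty droplets held 7.35 and 23.6 CPM of Il1rl1 in the same pair of libraries, and the part of this in the ratios was not tested.

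In Foxp3-positive cells, 2 of the 6 genes other than Foxp3 were called lower in the IL-10/2-Trikine than the mono-IL-10 library, beside 13% of all genes. Itgb8 had a ratio of 0.65 (0.53 to 0.80) and Izumo1r of 0.64 (0.56 to 0.73). Both were lower in other CD4 cells too, with ratios of 0.25 (0.20 to 0.31) and 0.37 (0.33 to 0.42). Sub-cluster 7 of T cell-like cells had 1540 mono-IL-10 and 271 IL-10/2-Trikine cells, and sub-cluster 3 had 243 and 1638. The part of such shifts in these ratios was not tested. With Lrrc32 at 0.58 (0.31 to 1.12), 3 of 6 genes were called lower in other CD4 cells, beside 24.8% of all genes, and Il1rl1 was the 1 called higher, beside 12.5%. The Lrrc32 levels of other CD4 cells in both libraries, and the Itgb8 level in the IL-10/2-Trikine library, had intervals that overlapped those of empty droplets, so no change of Lrrc32 is read there. In CD8 cells 2 of 5 genes were called higher, Il1rl1 and Areg (2.15, 1.97 to 2.35), beside 8.31%, and 1 was called lower, Izumo1r (0.55, 0.46 to 0.65), beside 17.4%. The CD8 levels of these 3 genes were below those of empty droplets. The Itgb8 ratio in Foxp3-positive cells turned to 2.13 (0.83 to 6.97) when cells were thinned to 1000 UMIs, and the Izumo1r ratio was 0.95 in the regulatory-like sub-cluster. Ikzf2, Lrrc32 and Areg were not called, with ratios of 0.80, 0.81 and 1.22, although the Areg ratio was 1.81 when thinned.

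**Figure D3:**
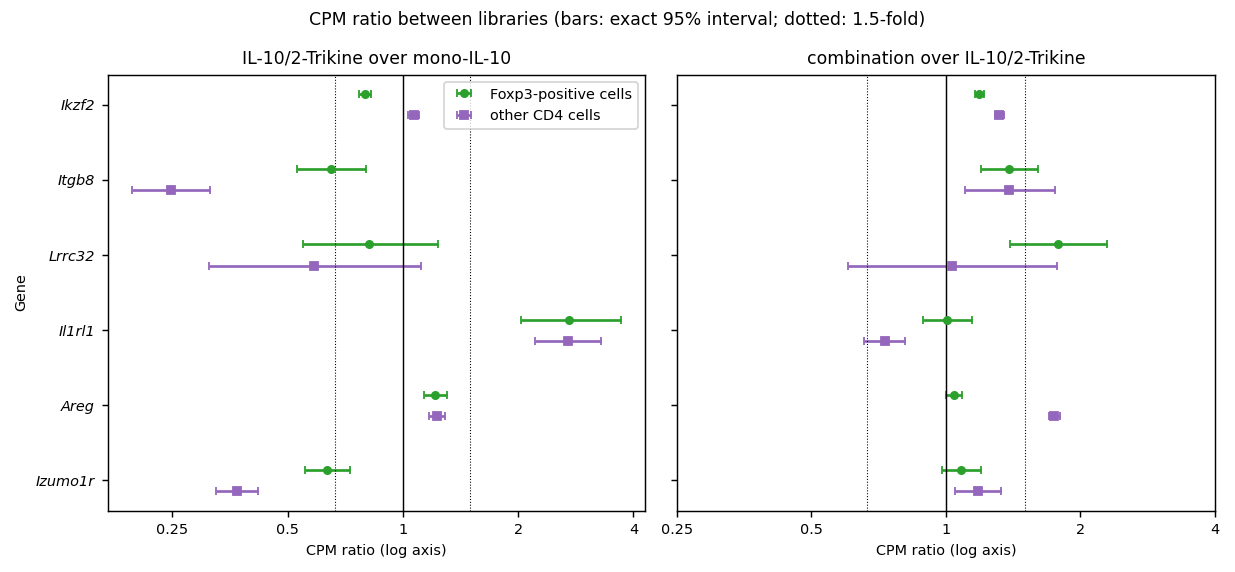
CPM ratio between libraries on a log axis (horizontal) for 6 genes (vertical) in Foxp3-positive and other CD4 cells, with exact 95% intervals and dotted lines at 1.5-fold in either direction. Il1rl1 lay near 2.7 in both classes in the first comparison, and Areg of other CD4 cells lay at 1.75 in the second.

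In Foxp3-positive cells of the combination over the IL-10/2-Trikine library, Lrrc32 was the 1 of the 6 genes other than Foxp3 called higher. It was 1.78-fold higher (1.39 to 2.30), beside 4.56% of all genes called higher. None was called lower, beside 3.56%. Ikzf2 had a ratio of 1.19 (1.16 to 1.22), short of the call. The Lrrc32 ratio was 1.30 in the regulatory-like sub-cluster and 1.31 when thinned, short of the call in both. Il1rl1 had a ratio of 1.01 (0.89 to 1.14), which became 1.68 when thinned, and Areg had 1.04 (1.003 to 1.09). Itgb8 had a ratio of 1.39 (1.20 to 1.61), short of the call, and 1.63 with at least 2 Foxp3 UMIs required. In other CD4 cells Areg was higher in the combination, by 1.75-fold (1.70 to 1.80), and was the 1 of 6 genes called higher there, beside 7.63% of all genes, with none called lower, beside 6.35%. Sub-cluster 2 of T cell-like cells, of which 92.8% had a Cd4 UMI, numbered 710 cells in the IL-10/2-Trikine and 2063 in the combination library. The part of such shifts in the Areg ratio was not tested. In CD8 cells Itgb8, Lrrc32 and Izumo1r, 3 of 6 genes, were called higher at levels of 1.09 to 11.1 CPM, below those of empty droplets, beside 10.3% of all genes, and none was called lower, beside 6.5%.

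ILC2-like cells numbered 34, 90 and 16 in the mono-IL-10, IL-10/2-Trikine and combination libraries. Areg was 1.80-fold higher (1.66 to 1.96) in the IL-10/2-Trikine than the mono-IL-10 library, as 1 of 3 genes with enough UMIs, beside 15.3% of all genes, and none was called lower, beside 14.9%. It was lower in the combination, with a ratio of 0.64 (0.58 to 0.70), and Ikzf2 was also called lower at 0.48 (0.20 to 1.002), beside 23.3% of all genes, with none called higher, beside 15.1%. The Ikzf2 levels of ILC2-like cells were below those of empty droplets in every library. Ikzf2 had 66 UMIs there in the IL-10/2-Trikine and 8 in the combination library, so it had enough only through the former. In NK cell-like cells, 6 of 7 genes were called higher in the IL-10/2-Trikine than the mono-IL-10 library, beside 13.5% of all genes, and none lower, beside 19.6%. Of these, Lrrc32, Itgb8, Il1rl1 and Foxp3 had 1, 5, 12 and 15 UMIs in the mono-IL-10 library. They had enough UMIs only through the library where they were high, so the count of 6 is not read as a result. Among the 6, only Ikzf2 was above empty droplets, with a ratio of 1.62 (1.57 to 1.67). Empty droplets also held more Ikzf2 in the IL-10/2-Trikine library, and their part in this ratio was not tested. A Cd3 UMI was carried by 47.7%, 73.4% and 55.6% of NK cell-like cells in the 3 libraries. Among NK cell-like cells without a Cd3 UMI the Ikzf2 ratio was 1.43, at 176 and 251 CPM in the mono-IL-10 and IL-10/2-Trikine libraries. Both levels were below those of empty droplets. With called doublets removed, the ratios were 0.96 for Il1rl1, 0.65 for Areg and 1.28 for Itgb8, against 2.78, 1.91 and 2.19 with them. In the combination over the IL-10/2-Trikine library, NK cell-like cells had 1 of 7 genes called higher, Itgb8 (1.57, 1.07 to 2.30) at 2.60 CPM, beside 11.3% of all genes, and none lower, beside 7.51%. The Ikzf2 ratio there was 0.89, but 1.34 among cells without a Cd3 UMI, whose IL-10/2-Trikine level was below that of empty droplets.

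Whether the IL-33 receptor gene marked Foxp3-positive cells that differ in the other genes was tested by splitting them by an Il1rl1 UMI. The split gave 28, 170 and 193 Il1rl1-positive cells against 186, 477 and 473 negative cells in the 3 libraries. Their median depths were 5739, 7756.5 and 8763 UMIs against 5898, 5463 and 6604 UMIs. None of the 5 genes tested was called (edgeR, adjusted over 9396 genes), beside 0.575% of genes higher and 0.511% lower. Areg held 628, 822 and 922 CPM in Il1rl1-positive and 636, 744 and 745 CPM in Il1rl1-negative cells, a log2 difference of 0.20 ± 0.07 (adjusted p = 0.261). Areg was called higher under 3 alternatives. It differed by 0.35 (adjusted p = 0.00309) in the regulatory-like sub-cluster, by 0.18 (adjusted p = 0.0283) when cells with a Cd8 UMI were kept and by 0.25 (adjusted p = 0.0365) without the mono-IL-10 library. Izumo1r differed by -0.31 ± 0.10 (adjusted p = 0.191), Ikzf2 by -0.14 ± 0.06 (adjusted p = 0.411), Lrrc32 by 0.32 ± 0.20 (adjusted p = 0.657) and Itgb8 by 0.01 ± 0.12 (adjusted p = 0.994).

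Of 17 Treg surface and effector genes tested across that split, 3 were higher and 3 lower, with a median log2 difference of 0.08 against 0.00 over all genes. Il2ra, the IL-2 receptor alpha chain, was higher by 0.46, Klrg1 by 0.56 and Nrp1 by 0.87, and Il10 was lower at -0.80, Entpd1 (CD39) at -0.69 and Ctla4 at -0.28. Of 10 Treg transcription factors, 2 were higher, Gata3 by 0.47 and Rora by 0.52, and 1 was lower, Maf at -0.52. In the IL-33 receptor pathway Nfkb1 was the 1 of 8 genes called, higher by 0.60, and among 10 genes of TGF-beta activation and response Smad3 was the 1, higher by 0.65. The genes with the highest values were Acod1, Cxcl10, Xcl1, Nrp1 and Ccl1, at 1.60, 1.26, 1.16, 0.87 and 0.79. In the mono-IL-10 library the values of Xcl1 and Ccl1 went the other way, at 3.97 against 9.54 CPM and 3.97 against 24.5 CPM in Il1rl1-positive against Il1rl1-negative cells. At 3.97 CPM each had 1 UMI, so the direction of Xcl1 in that library is not read. The lowest were Calca, Lag3, Prf1, Asb2 and Csf1, at -1.91, -1.15, -0.94, -0.88 and -0.87. The number of genes called depended on the tool, with 54 higher and 48 lower in edgeR against 7 and 11 in DESeq2.

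**Figure D4:**
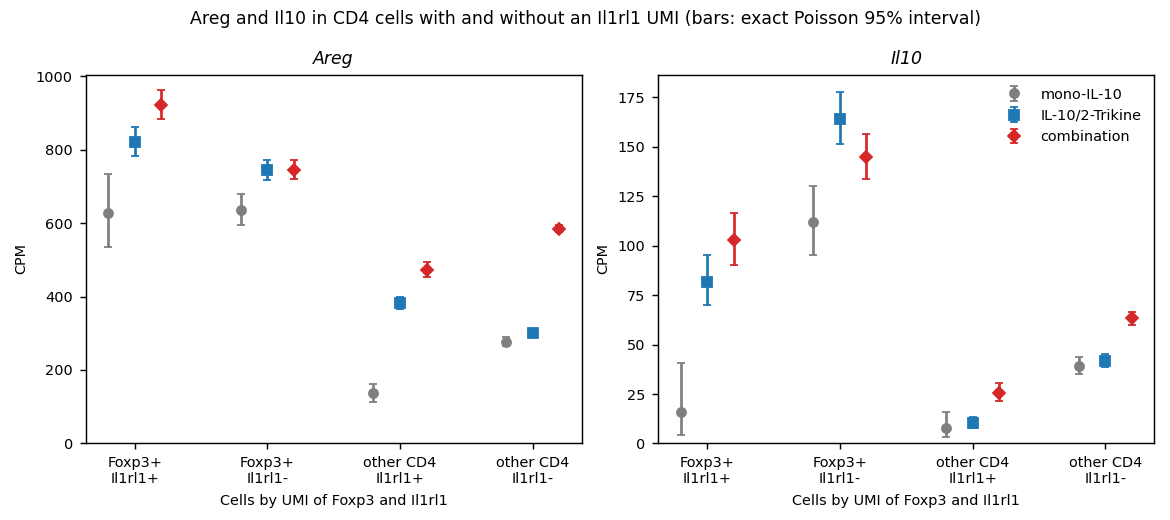
CPM (vertical) of Areg and Il10 in Foxp3-positive and other CD4 cells with and without an Il1rl1 UMI (horizontal), with 1 point per library and exact Poisson 95% intervals. Il10 was lower in Il1rl1-positive than Il1rl1-negative Foxp3-positive cells of each library, while Areg overlapped in the mono-IL-10 library.

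Few Foxp3-positive cells lacked all of the other 6 genes, and the commonest number found was 2 in the mono-IL-10 and IL-10/2-Trikine libraries and 3 in the combination library. None of them was found in 2.34%, 0.773% and 0.450% of Foxp3-positive cells, against 41.5%, 19.6% and 15.0% of other CD4 cells, whose median depth was lower at 3988 and 5426.5 UMIs in the mono-IL-10 and combination libraries but not at 6124 UMIs in the IL-10/2-Trikine library. T cell-like cells were also clustered without the 7 genes into 13 sub-clusters, of which 1 was named regulatory-like from 9 of 10 Treg markers. It held 72.4%, 74.7% and 75.5% of Foxp3-positive cells. Its Foxp3 level was 172, 184 and 172 CPM. Sub-cluster 6, led by Tnfsf8, Cd40lg and Ramp3, held only 1.27, 7.90 and 10.7 CPM of Foxp3 but 38.9, 85.6 and 79.3 CPM of Il1rl1, close to the 34.8, 89.3 and 78.0 CPM of the regulatory-like sub-cluster.

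**Figure D5:**
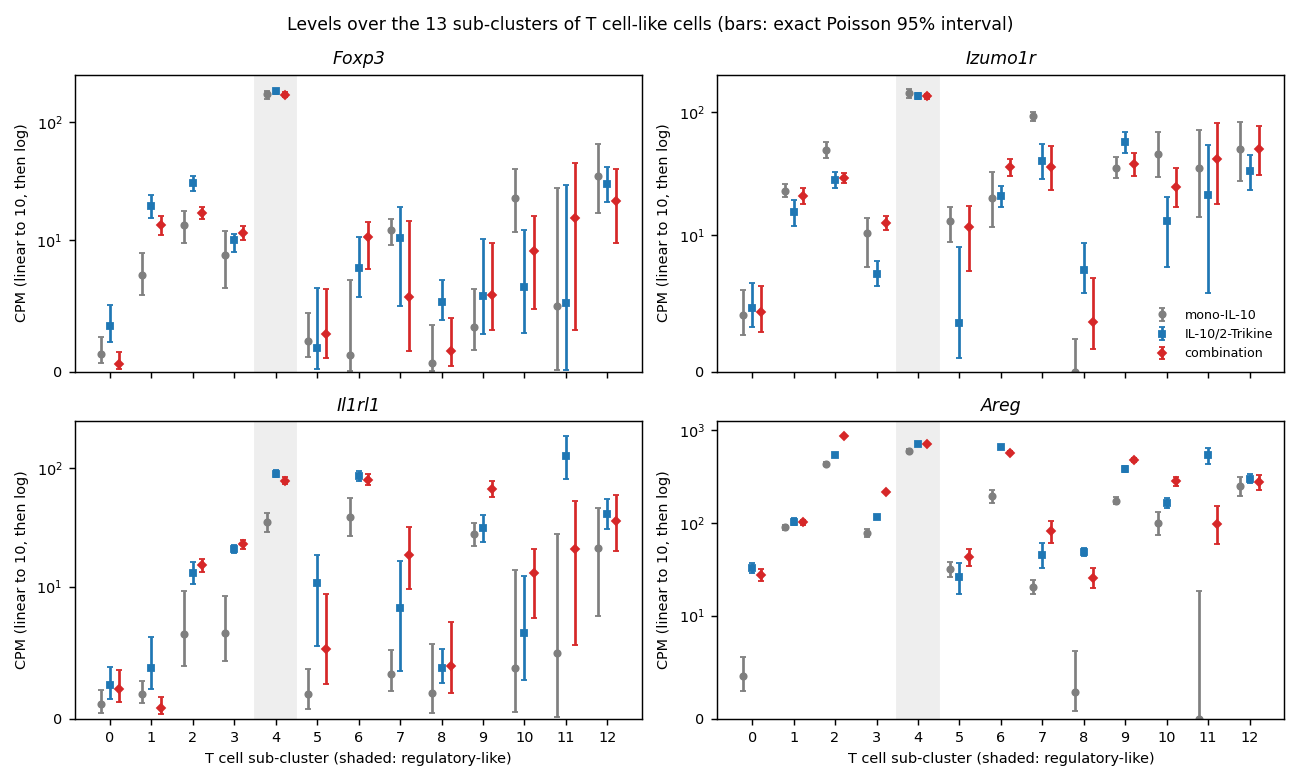
CPM (vertical, linear to 10 and logarithmic above) of Foxp3, Izumo1r, Il1rl1 and Areg in 13 sub-clusters of T cell-like cells (horizontal), with 1 point per library, exact Poisson 95% intervals and the regulatory-like sub-cluster shaded. Foxp3 and Izumo1r peaked in the shaded sub-cluster, whereas Il1rl1 and Areg were also high in sub-cluster 6.

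Over the 15 combinations of class and library, pairs of the genes were compared by Pearson r of log2(CPM + 1), with no test, since the points share libraries and classes. Il1rl1 and Areg had r = 0.97. For both, the CD8 and NK cell-like points lay below empty droplets and the ILC2-like points lay highest. The part of background in any r here was not tested. Ikzf2, Itgb8 and Izumo1r had r between 0.78 and 0.89 with each other and between -0.50 and 0.04 with Il1rl1 or Areg. Lrrc32 lay between these, with r from 0.26 with Il1rl1 to 0.70 with Itgb8. Its 19.5 CPM in ILC2-like cells of the combination library came from 2 UMIs. The effect of this point on any r of Lrrc32 was not tested. Among 7921 candidate genes, those most like Il1rl1 were Sh3bgrl, Hilpda and Cish (r = 0.98, 0.97 and 0.97), and those most like Areg were Tent5a, Sh3bgrl and Fam110a (r = 0.97 each). Ikzf4, Phlpp1 and Dclk2 were most like Izumo1r (r = 0.96, 0.94 and 0.93), and Ttn, Ankrd55 and Lbh most like Itgb8 (r = 0.95 each). Ikzf2 was most like Sh3rf1, Frmd5 and Hbs1l (r = 0.92 each), and Lrrc32 most like Nckap5, Rab11a and Chmp2a (r = 0.94, 0.88 and 0.87).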

How the data were processed

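The authors deposited UMI counts per gene and barcode from 10x 3' libraries. Cell Ranger made them, in version 8.0.0 per the file headers and a later one per the methods, and the submitters' processing notes name build mm10 where the methods name GRCm39. Total counts were 158570946, 197176873 and 175794959 UMIs in the mono-IL-10, IL-10/2-Trikine and combination libraries, and 22235, 22707 and 26967 barcodes passed (200 genes or more, mitochondrial UMIs no more than 20%), of which any pair of libraries shared at most 180. Cells were clustered jointly without the 7 genes (scanpy 1.11.5, 2000 variable genes, 30 components, Leiden resolution 1, leidenalg 0.10.2) and clusters were named from marker lists. Within T cell-like clusters, other CD4 cells had a Cd4 UMI without Cd8 and CD8 cells a Cd8 UMI without Cd4, and neither had Foxp3. Doublets were kept, and Scrublet's calls were removed as an alternative (14.4%, 16.8% and 3.71% of cells). Empty droplets were barcodes of 1 to 100 UMIs.

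Class differences were tested with edgeR 4.0.16 in R 4.3.3 (TMM, filterByExpr), and DESeq2 1.42.0 was an alternative. P-values weigh the differences between classes against the spread of the class sums over the 3 libraries, with the library as a block. The contrasts with other CD4 and with CD8 cells came from 1 fit of all 3 classes. The sums of each class thus bear on the spread used in both. The 3 libraries were different treatments and not replicates, so the spread between mice was not measured. On simulated data with 200 genes changed, the step was tested before use. Genes that define a gate were not tested, and Foxp3 is left out of the counts of these genes called in Foxp3-positive cells. The named genes are the 7 genes, 6 lists, the 3 genes most like each gene, and the 5 highest and 5 lowest log2 fold changes with adjusted p under 0.05 and at least 20 CPM, of which 1 is not reported here. The genes, lists and alternatives were chosen with earlier results of these data known. Gates that keep Cd8 UMIs or need a Cd4 UMI, and levels by NK cell-like cluster, were added after seeing the data. So was the regulatory-like sub-cluster in tests: it was run on all 3 contrasts, and only the Il1rl1 split is reported, since a sub-cluster against other T cells is no test. This sub-cluster is the one with the most Treg markers, 9, where at least 5 were required. Sub-cluster 2, with 7, was not named. The rule replaced a first one that named none.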

Additional observations from a re-analysis of the deposited data

Results flagged for a closer look

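Areg was called in opposite directions in 2 classes when the combination was compared with the IL-10/2-Trikine, with a ratio of 1.75 in other CD4 cells and 0.64 in the 16 ILC2-like cells of the combination against 90 of the IL-10/2-Trikine library. The difference between the classes was not tested.

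Outside the 5 classes, 3 signals lay above empty droplets in every library. Il1rl1 held 202, 369 and 354 CPM in the 8, 11 and 12 mast cell/basophil-like cells of the mono-IL-10, IL-10/2-Trikine and combination libraries. Areg held 271, 459 and 343 CPM in mature dendritic cell (DC)-like cells, of which 32.5% had a Cd3e UMI. Itgb8 held 14.8, 9.10 and 15.2 CPM in conventional type 2 dendritic cell (cDC2)-like cells, of which 60.4% had a Cd3e UMI and 16.0% a Foxp3 UMI. The part of T cell transcripts in these values was not tested.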

How the results depend on the processing

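Of the 6 genes higher in Foxp3-positive than other CD4 or CD8 cells, all kept their direction under every alternative, and only Il1rl1 and Areg lost the call against other CD4 cells, without the library block. The log2 difference from other CD4 cells ranged from 0.92 to 1.92 for Il1rl1 and from 0.64 to 1.26 for Areg. Lrrc32 fell below the filter once cells were thinned, and so was not tested there. The causes of the changes below were not tested.

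In Foxp3-positive cells, IL-10/2-Trikine over mono-IL-10, thinning to 1000 UMIs gave ratios of 0.93 for Ikzf2, 2.13 for Itgb8, 1.81 for Areg and 0.80 for Izumo1r. The regulatory-like sub-cluster gave 0.91 for Ikzf2, 1.33 for Lrrc32 and 0.95 for Izumo1r, and removing called doublets gave 0.83 for Ikzf2. Ikzf2 and Areg were 0.85 and 1.30 under TMM scaling and 0.86 and 1.31 under median-of-ratios scaling. Areg was 1.33 with at least 2 Foxp3 UMIs. Keeping cells with a Cd8 UMI gave 0.89 for Ikzf2 and 1.02 for Areg. For the combination over IL-10/2-Trikine, thinning gave 1.45 for Ikzf2, 1.31 for Lrrc32, 1.68 for Il1rl1 and 1.11 for Areg. The regulatory-like sub-cluster gave 1.14 for Ikzf2, 1.30 for Lrrc32 and 0.87 for Il1rl1. Removing doublets gave 1.13 for Ikzf2 and 0.99 for Areg, at least 2 Foxp3 UMIs gave 1.63 for Itgb8 and 1.19 for Areg, and keeping cells with a Cd8 UMI gave 1.27 for Ikzf2, 1.44 for Areg and 1.37 for Izumo1r. The Foxp3 ratio over Foxp3-positive and other CD4 cells together was 1.15 and 0.85 in the 2 comparisons. It became 1.96 and 0.66 when thinned and 1.02 and 0.93 with Cd8 UMIs kept. With called doublets removed, NK cell-like ratios for IL-10/2-Trikine over mono-IL-10 turned to 0.96 for Il1rl1 and 0.65 for Areg.

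Foxp3-positive over other CD4 cells, with 766 genes higher and 476 lower, gave 257 and 207 when thinned, 175 and 76 without the library block, 802 lower without a filter, and 220 to 754 higher and 118 to 353 lower with 1 library left out. Over CD8 cells, 1664 higher and 1312 lower became 695 and 515 when thinned, 947 and 546 without the block, and 921 to 1501 and 521 to 1075 with 1 library left out, lowest without the combination library. The Il1rl1 split, with 54 and 48, gave 4 and 4 when thinned, 7 and 11 with DESeq2, 391 and 275 with Cd8 UMIs kept, 87 higher without doublets, 21 lower with at least 2 Foxp3 UMIs, 27 lower in the regulatory-like sub-cluster, and 3 to 117 higher and 4 to 93 lower with 1 library left out. Without the combination library the counts against other CD4 cells were 220 and 118, without the IL-10/2-Trikine library those of the split were 3 and 4, and without the mono-IL-10 library 117 and 93. No paired analysis was possible because the labels number no replicates and each treatment is 1 library, while the class tests had the library as a block. With 16 to 90 ILC2-like cells a library, counting error limits every value of that class.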
